A study of Mus musculus with 24 samples.

Results

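The regions described here are the 500 widest H3K27ac peaks of control NIH3T3 cells. NIH3T3 is an established line of mouse embryo fibroblasts that can answer Hedgehog signals. They were chosen by their width in the deposited control list, with ties broken by the lower deposited rank, from the 90969 peaks on chromosomes 1 to 19 and X of 91023 peaks in all. The measurements were made by ChIP-seq, in which chromatin carrying a histone mark is immunoprecipitated and sequenced. The control cells were kept for 48 h in low serum with DMSO, the solvent, and the treated cells for the same time with 400 nM purmorphamine, which switches on the pathway at its membrane protein SMO. Both arms carry the letters LIF in their labels, which the labels do not explain. The limb lists came from E10.5 forelimb buds of wild-type (WT) and Shh-/- embryos on a Swiss Webster background. Embryos were pooled, and by the study's methods the WT pool also held heterozygous littermates. The limb was profiled for H3K27ac and H3K4me2 in both genotypes and for H3K27me3 in Shh-/- limbs alone. The series holds 24 libraries in 14 groups, with 2 immunoprecipitations for each condition and about 1000000 NIH3T3 cells or 400000 limb cells in each.

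H3K27ac is an acetyl mark laid down by the acetyltransferases p300 and CBP on nucleosomes of active promoters and enhancers. Unusually long acetylated stretches arise where several enhancers lie side by side, and in many cell types they are found at genes of cell identity. In fibroblasts such genes include collagens and the enzymes that cross-link them, and transcription factors that mark mesenchyme. H3K4me2 marks promoters and enhancers more generally, and H3K27me3 is written by Polycomb complexes at silenced developmental genes. In Hedgehog signaling, GLI transcription factors act as repressors without ligand and as activators with it.

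Each condition had a single list made from its replicates together, so no spread between replicates could be measured and no difference below was tested over samples. Shares of domains are given with 95% Wilson intervals, which cover counting error only. The lists do not give the depth of a library. The NIH3T3 and limb H3K27ac immunoprecipitations used different antibodies and cell numbers, so the cell type and the assay cannot be told apart. Of 20 fibroblast marker genes, 18 had a transcription start inside a control peak, beside 36.7% of all protein-coding genes. The counts were 0 of 15 epithelial, 0 of 15 neural, 0 of 10 pluripotency, 1 of 14 endothelial, 1 of 14 blood and 1 of 12 skeletal muscle markers. For limb bud mesenchyme, whose list shares Prrx1 with the fibroblast list, the count was 4 of 18. Inside a domain lay the starts of 7 of the 20 fibroblast markers and 3 of the 18 limb bud mesenchyme markers. The other marker lists had 0 there, and the share of all protein-coding genes was 0.575%.

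GLI proteins read the letters GACCACCCA, and an exact match on either strand was found 24 times, in 23 of the 500 domains. Per kb this was 0.00619 matches, fewer than in the next 500 control peaks by width (0.00686) and in all control peaks (0.00901). The matches in 4 of the 23 domains are shown, in domains described below that span the range of what was kept with purmorphamine. They are read from GRCm38 on the strand of the match, with 20 bases on either side and the match in capitals. The first lies at chr7:72501311-72501359 in the widest domain, near Mctp2. The second lies at chr7:82032659-82032707 in the domain that kept the smallest share of its length, near Bnc1. The third lies at chr9:54796672-54796720 near Crabp1. The fourth lies at chr1:163317578-163317626 in the Prrx1 domain, which was kept whole.
near Mctp2: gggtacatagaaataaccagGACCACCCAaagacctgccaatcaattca
near Bnc1: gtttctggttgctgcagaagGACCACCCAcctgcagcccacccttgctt
near Crabp1: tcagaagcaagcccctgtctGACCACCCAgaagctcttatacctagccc
Prrx1: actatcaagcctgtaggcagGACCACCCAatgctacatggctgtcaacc

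All 9 bases of the match lay in a purmorphamine peak near Mctp2, near Bnc1 and at Prrx1, and none of them did near Crabp1. None of the 4 matches lay in an H3K27ac peak of the limb. The 23 domains with a match kept 83.8% of their bp with purmorphamine and the others 86.5%. A match is a description of the letters, and binding was not measured here.

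Sequence at the strongest point of acetylation is shown for a pair of domains whose 300 bp windows held the AP-1 letters TGANTCA, which read the same on both strands and were counted once. Such a match was found in the windows of 40 of the 500 domains (8.00%), beside 9.31% over all control peaks, so the pair is not typical. AP-1 is the factor made of FOS and JUN proteins. The best-ranked peak of the whole control list lies near Mtap, and its window is chr4:89049575-89049874 on the plus strand. It holds 1 AP-1 match and 1 match to GGAATG, the core read by TEAD factors on either strand, both in capitals and not overlapping. The window near Crabp1, chr9:54801775-54802074 on the plus strand, holds 2 AP-1 matches. Neither window overlaps an annotated exon.
near Mtap: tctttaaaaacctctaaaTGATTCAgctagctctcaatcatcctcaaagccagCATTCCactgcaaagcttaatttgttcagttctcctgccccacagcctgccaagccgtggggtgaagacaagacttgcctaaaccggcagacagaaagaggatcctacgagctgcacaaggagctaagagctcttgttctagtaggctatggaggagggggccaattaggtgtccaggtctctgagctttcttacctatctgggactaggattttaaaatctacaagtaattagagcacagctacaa
near Crabp1: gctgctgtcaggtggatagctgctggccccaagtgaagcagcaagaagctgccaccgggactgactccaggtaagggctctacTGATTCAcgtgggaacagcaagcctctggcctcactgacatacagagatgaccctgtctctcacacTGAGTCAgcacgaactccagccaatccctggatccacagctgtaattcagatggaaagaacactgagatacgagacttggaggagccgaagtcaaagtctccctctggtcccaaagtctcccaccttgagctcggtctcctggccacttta

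The domains were 5300 to 28300 bp wide with a median of 6800 bp, against a median of 350 bp over all control peaks. They made up 0.550% of the control peaks and 6.42% of the bp in them. Width was the measure that chose them, so these values describe the choice. The cut fell among peaks of equal width. Of 15 peaks of 5300 bp, 2 were members, near Arhgap27 with deposited rank 54 and near Cd69 with rank 207, and the next in order had ranks 642 and 2046. Width and rank were not the same order. The deposited rank of the members ran from 1 to 15307 with a median of 1376, and 137 of them were among the 500 best-ranked peaks. The largest log2 ratio of ChIP to input within a peak had a median of 4.91 in the domains, 4.66 in the next 500 peaks by width and 2.70 in all control peaks.

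**Figure D1:**
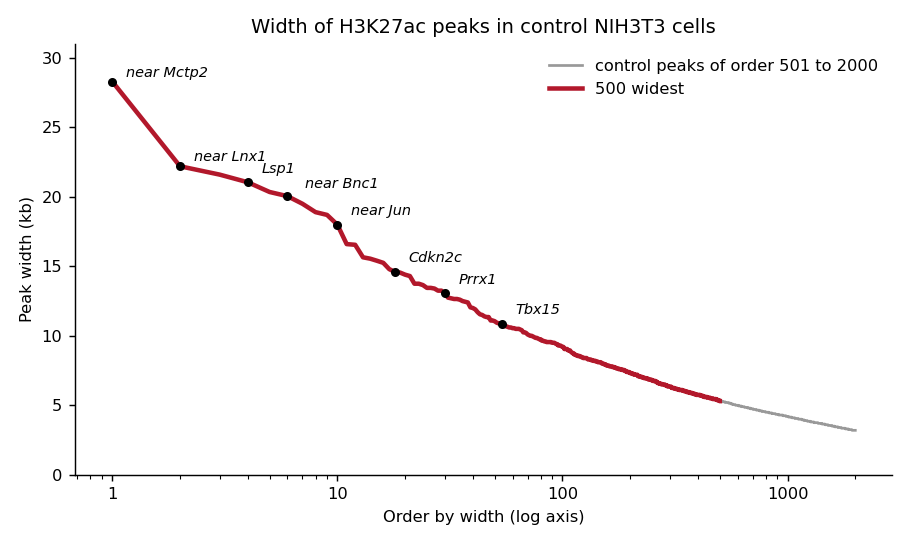
Width of control NIH3T3 H3K27ac peaks in kb against their order by width, on a log axis, with the 500 widest in red and the next peaks in grey. The widest domain, near Mctp2, stands at 28300 bp and the red line ends at 5300 bp, in the middle of a run of equal widths.

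The widest domain, chr7:72492450-72520749, lay 185842 bp from the nearest protein-coding start, that of Mctp2, which encodes a membrane protein with calcium-binding C2 domains. The second, chr5:74761850-74784049 with 22200 bp, lay 58938 bp from Lnx1, a ubiquitin ligase gene. The next was 21600 bp wide and lay 31035 bp from Clec2d, which encodes a C-type lectin. The first to hold a protein-coding start was the 21050 bp domain of Lsp1, whose product binds actin. A 20050 bp domain lay 23908 bp from Bnc1, a zinc finger gene, and a 19500 bp domain of rank 1 lay 71873 bp from Mtap, an enzyme of methionine salvage.

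Further down the 20 widest, an 18000 bp domain lay 39328 bp from Jun, the AP-1 subunit, and a 16550 bp domain lay 1227 bp from Zfhx4, a zinc finger homeobox gene. A 14800 bp domain lay within Trps1, a GATA-type repressor of skeletal development. Domains of 14600, 14550 and 14400 bp held the starts of Cdkn2c, an inhibitor of cyclin-dependent kinases, of Meis1, a homeobox factor of the proximal limb, and of Loxl1, which cross-links elastin. Further members of the 20 widest lay within Fbxl13 and near Mctp2 (2 more), Ifne, Dapk1, Kera and Crabp1. Most of the 20 thus lay away from a start, and 5 held one.

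Over all 500 domains, 121 held a protein-coding transcription start (24.2%, interval 20.7 to 28.1%), against 8.56% of all control peaks and 117 of the next 500 (23.4%, interval 19.9 to 27.3%). A further 156 lay over the body of a coding gene without its start, and 223 lay between coding genes. The domains without a start lay a median of 60513 bp from the nearest one and at most 1319155 bp, and 132 of them were over 100 kb away. The share with a start was therefore above that of all peaks, which are narrower, and within the interval of the next 500. Among the domains without a coding start, 53 held the start of a noncoding gene.

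Domains lay close to each other. Within 50 kb of another domain lay 234 of the 500, in 86 groups, so that the 500 formed 352 separate loci. The longest run held 13 domains near Mctp2 and spanned 308700 bp, of which 46.6% lay in domains. A run of 8 near Gipc2 and Ptgfr, the prostaglandin F receptor gene, spanned 178900 bp. Runs of 5 lay in Syn3, the gene that holds Timp3 within it, and near Zfp36l2. At Lsp1, Tnni2 and Syt8, 4 domains filled 93.3% of 55850 bp. Near 4932411N23Rik on the X chromosome, 3 domains filled 99.3% of 33750 bp. In 30 places the next domain began less than 1 kb from the last, and 479 of the 500 had some other control peak within 1 kb, so the number and width of domains rest on short gaps in the list.

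Of 21728 protein-coding genes, 125 had a start inside a domain (0.575%) and 487 had a start within 50 kb of one (2.24%). The lists below were chosen with earlier results of these data known, so their counts are descriptions beside these shares. Of 47 genes of the fibroblast extracellular matrix, 7 had a start inside a domain and 15 had one within 50 kb. The widest was Loxl1. Col6a1, a subunit of beaded-filament collagen, had a 9200 bp domain, Col1a1, the chief fibrillar collagen gene, one of 7800 bp, and Dcn, the proteoglycan decorin, one of 6900 bp. Lox, Timp3 and Postn had domains of 5450 to 5900 bp. Matrix genes with a domain within 50 kb of the start included Col1a2, Lum, Bgn and Fbln2.

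Transcription factors of mesenchyme were the longest list and gave the largest number, with 15 of 91 starts inside a domain (16.5%) and 24 within 50 kb. The share inside a domain was 14.9% in the matrix list and 17.2% among growth factors, receptors and cytokines. The widest domains of the mesenchymal list were those of Meis1, Prrx1 (13050 bp), Tbx15 (10850 bp), Nr2f2 (10500 bp) and Bnc2 (8450 bp). Prrx1 is a homeobox factor of limb and craniofacial mesenchyme, Tbx15 is a T-box factor of skeletal and skin patterning, and Bnc2 is the relative of Bnc1 found in mesenchymal cells. The others were Runx2, Nr2f1, Runx1, Meis2, Nfib, Ebf3, Hmga2, Tcf4, Tbx3 and Foxc2. Among growth factors, receptors and cytokines, 10 of 58 had a start inside a domain. They included Fgf7, a growth factor that fibroblasts send to epithelia, in a domain of 13650 bp, S100a4 in one of 11700 bp, Il1rl1, the interleukin receptor, in one of 10450 bp, and Nrg1, a ligand of ERBB receptors, in one of 7050 bp.

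Lists of general cell functions had fewer members. Of 51 actin cytoskeleton genes, 5 had a start inside a domain, with 8000 bp at Lmna, 6550 bp at Sept9, 6100 bp at Cnn2 and 6000 bp at Zyx. Lmna, the gene of nuclear lamins A and C, had another start in a second domain of 6000 bp. Of 46 serum and immediate early genes, 4 did, and their domains measured 8400 bp at Zfp36l2, 6950 bp at Sgk1, 6000 bp at Klf6 and 5850 bp at Btg1. The AP-1 family had 1 of 16, Fosl2, with 7550 bp. YAP and TEAD genes had 2 of 26, Vgll3 with 6250 bp and Axl with 5900 bp. The TGF-beta and BMP pathway had 1 of 39, Tgif1, a homeobox corepressor, with 7300 bp. The cell cycle list had 1 of 28, Cdkn2c. The Hox clusters had 1 of 41, Hoxa2, in a domain of 9500 bp. Of 34 housekeeping genes, 27 had a start in some control peak and 0 in a domain. So short a list would hold few or none at the 0.575% of all coding genes, so 0 is not a contrast. Within 50 kb of a domain lay 2 of the 34 (5.88%), Tpi1 and Fth1, beside 2.24% of all coding genes.

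The Hedgehog pathway list, which the treatment addresses, had 1 of 24 starts inside a domain. This was Gas1, a surface coreceptor for Hedgehog ligands, in a domain of 7900 bp at chr13:60172050-60179949. Hhat, the acyltransferase that modifies the ligands, was the other gene of the list within 50 kb of a domain. The limb bud regulators had 3 of 43, namely Meis1, Meis2 and En1.

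Noncoding genes were among the members too. Of 31 long noncoding RNA and microRNA genes chosen, 7 had a start inside a domain and 13 had one within 50 kb. The shares given above are of protein-coding genes and are no background for this list. Neat1, the RNA of paraspeckles, lay in a domain of 10050 bp, and its neighbour Malat1, an RNA of nuclear speckles, in one of 7200 bp. Of 1738 mature microRNA sequences in RefSeq, 18 from 11 genes lay inside 9 of the domains. The best known of them are printed because they give the products of these domains. The seed, bases 2 to 8 with which a microRNA pairs to its targets, is in capitals, and positions are in GRCm38.
miR-199a-5p: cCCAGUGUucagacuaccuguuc
miR-199a-3p: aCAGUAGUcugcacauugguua
miR-199b-3p: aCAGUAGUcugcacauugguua
miR-214-3p: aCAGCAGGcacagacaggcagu
miR-21a-5p: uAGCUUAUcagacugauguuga
miR-125b-5p: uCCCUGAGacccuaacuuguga

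The miR-199a-3p and miR-199b-3p sequences are the same, with the same seed, although they come from genes on different chromosomes. Mir199a-2 and Mir214 lay together in a 12750 bp domain inside Dnm3 on chromosome 1, at the start of the noncoding gene Dnm3os, with mature miR-199a-3p at chr1:162217883-162217904. Mir199b lay in a 6550 bp domain at Dnm1 on chromosome 2. The 2 loci carry related genes of the dynamin family as hosts. Of these domains, 98.4% and 99.2% of the bp were kept with purmorphamine, and 9850 and 5750 bp lay in WT limb H3K27ac peaks. Mir21a lay in a 9600 bp domain in Vmp1 of which every bp was kept, while 100 bp of it lay in WT limb peaks. Mir125b-1 lay in a 9550 bp domain between coding genes, 423188 bp from the nearest coding start, of which 99.5% was kept.

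With purmorphamine, every domain still held some acetylation. All 500 overlapped a purmorphamine peak by at least 1 bp, against 58.9% of all control peaks and 500 of the next 500. Of the 3876750 bp in the domains, 3346350 bp lay in purmorphamine peaks, which is 86.3%, against 81.9% in the next 500 and 66.0% over all control peaks. The share kept by a domain had a median of 91.7% and ran from 10.7 to 100%. At least 50% of the bp was kept by 467 domains (93.4%, interval 90.9 to 95.3%), beside 48.9% of all control peaks and 93.0% of the next 500 (interval 90.4 to 94.9%). Every bp was kept by 62 domains (12.4%, interval 9.79 to 15.6%), beside 20.4% of all control peaks, whose median width is smaller, and 57 of the next 500. At least 90% was kept by 272 domains (54.4%, interval 50.0 to 58.7%) and by 223 of the next 500 (44.6%, interval 40.3 to 49.0%). The domains and the next 500 thus had counts alike at the other limits, and at 90% the count was higher in the domains. Domains that lie in runs are not independent, which the intervals leave out, so the difference at 90% was not tested.

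**Figure D2:**
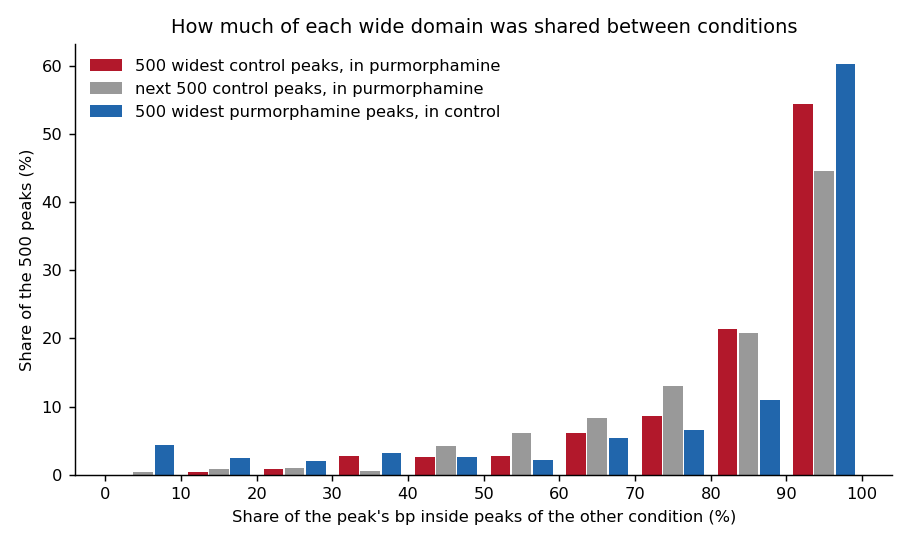
Share of each peak's bp inside peaks of the other condition, in bins of 10 percentage points, as a percentage of 500 peaks, for the 500 widest control peaks (red), the next 500 control peaks (grey) and the 500 widest purmorphamine peaks (blue). In the highest bin lie 54.4% of the red and 60.2% of the blue peaks, and the bins at the left hold more blue than red peaks, with 22 blue and 0 red below 10%.

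Seen from the other side, 81.1% of the bp of the 500 widest purmorphamine peaks lay in control peaks, with a median of 94.7% per peak. Of these, 73 had less than 50% of their bp in control peaks, against 33 of the control domains in purmorphamine peaks. There were 13 with no control peak, which was true of 0 domains in the other direction. The widest peaks of the conditions overlapped in part. Of the 500 domains, 231 overlapped one of the 500 widest purmorphamine peaks (46.2%), and 230 of those purmorphamine peaks overlapped a domain (46.0%).

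What was missing was mostly internal. Of 530400 bp not kept, 349200 bp lay between kept stretches and 181200 bp at the ends of domains. A domain was covered by a median of 3 separate purmorphamine peaks, by 1 in 120 domains and by as many as 12. The longest missing stretch was under 500 bp in 335 domains, and the longest of all was 4750 bp. Purmorphamine peaks also reached past the edges of 284 domains, by 424350 bp in all.

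The 20050 bp domain near Bnc1 kept the least, 10.7%, as 9 purmorphamine peaks of at most 450 bp. Its largest log2 ratio of ChIP to input was 5.41 in the control list and 3.33 in the purmorphamine list. The 10000 bp domain between it and the gene, 4258 bp from the Bnc1 start, kept 30.0%, with log2 ratios of 5.18 and 3.73. Over both domains and 12 kb on either side, a window of 63700 bp, control peaks filled 53900 bp and purmorphamine peaks 7500 bp, although the number of peaks was 23 and 22. The purmorphamine peaks were thus short throughout the window. No limb H3K27ac peak of either genotype lay in this window, and 2900 bp lay in Shh-/- limb H3K27me3 peaks.

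The other domains that kept the least were narrower and lay in or near genes of many kinds. A 5400 bp domain in Vwa8 kept 19.4%, a 5850 bp domain near AI593442 20.5%, a 5750 bp domain 177548 bp from Dapk1 kept 1550 bp, and a 5600 bp domain in Kirrel3, an adhesion molecule gene, 29.5%. Domains in Fggy, Phex, Itgb2 and Optc kept 29.9 to 34.2%. None of these 10 held a coding start. Across the 33 domains that kept less than 50%, 1 held one, at the vomeronasal receptor genes Vmn1r42 and Vmn1r43, 16 lay in gene bodies and 16 between genes. As shares, these are 1 of 121 (0.826%, interval 0.146 to 4.53%), 16 of 156 (10.3%, interval 6.41 to 16.0%) and 16 of 223 (7.17%, interval 4.46 to 11.3%). Domains with a start kept 92.7% of their bp, those in gene bodies 82.9% and those between genes 85.2%. The 33 also had lower control log2 ratios, a median of 4.52 against 5.04 in the 272 domains that kept at least 90%, so a lower control signal went with the smaller share kept. Its part in the result was not tested.

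The widest of the domains kept whole lay near 4932411N23Rik on the X chromosome, with 14300 bp. It and its neighbours of 10250 and 8950 bp lay under a single purmorphamine peak of 34600 bp, the widest in that list. Control gaps of 100 and 150 bp had separated them. The next were 13450 bp wide, 694730 bp from Rfpl4b, 13050 bp at Prrx1, 10850 bp at Tbx15 and 10500 bp at Nr2f2, a nuclear receptor of mesenchyme. The log2 ratio at Prrx1 was 5.69 in control and 6.02 with purmorphamine, and at Tbx15 it was 5.16 and 5.47. At Gas1 95.6% of the bp was kept, with log2 ratios of 5.36 and 5.43. The lists were normalized separately, so these pairs are side by side and no change was computed.

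The domains of the gene groups named next hold coding starts, and domains with a start kept more of their bp than the others. Over all 500 domains the median share kept was 91.7%. Among the gene groups, most matrix domains were kept nearly whole, with 98.3% at Loxl1, 97.8% at Col6a1 and Dcn, 98.2% at Postn, 97.4% at Timp3 and 89.7% at Col1a1. Lox kept 66.1%. Of the mesenchymal factors, Runx1 kept 67.2%, Tbx3 79.1%, Nfib 81.7% and Tcf4 84.7%, and the other 11 of the 15 kept 88.0 to 100%. Fgf7 kept 98.9% and S100a4 97.0%, while Ereg, a ligand of the EGF receptor, kept 75.2%. In the cytoskeleton list Cnn2 kept 99.2% and Vim 89.0%, Zyx 79.2% and Sept9 57.3%.

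**Figure D3:**
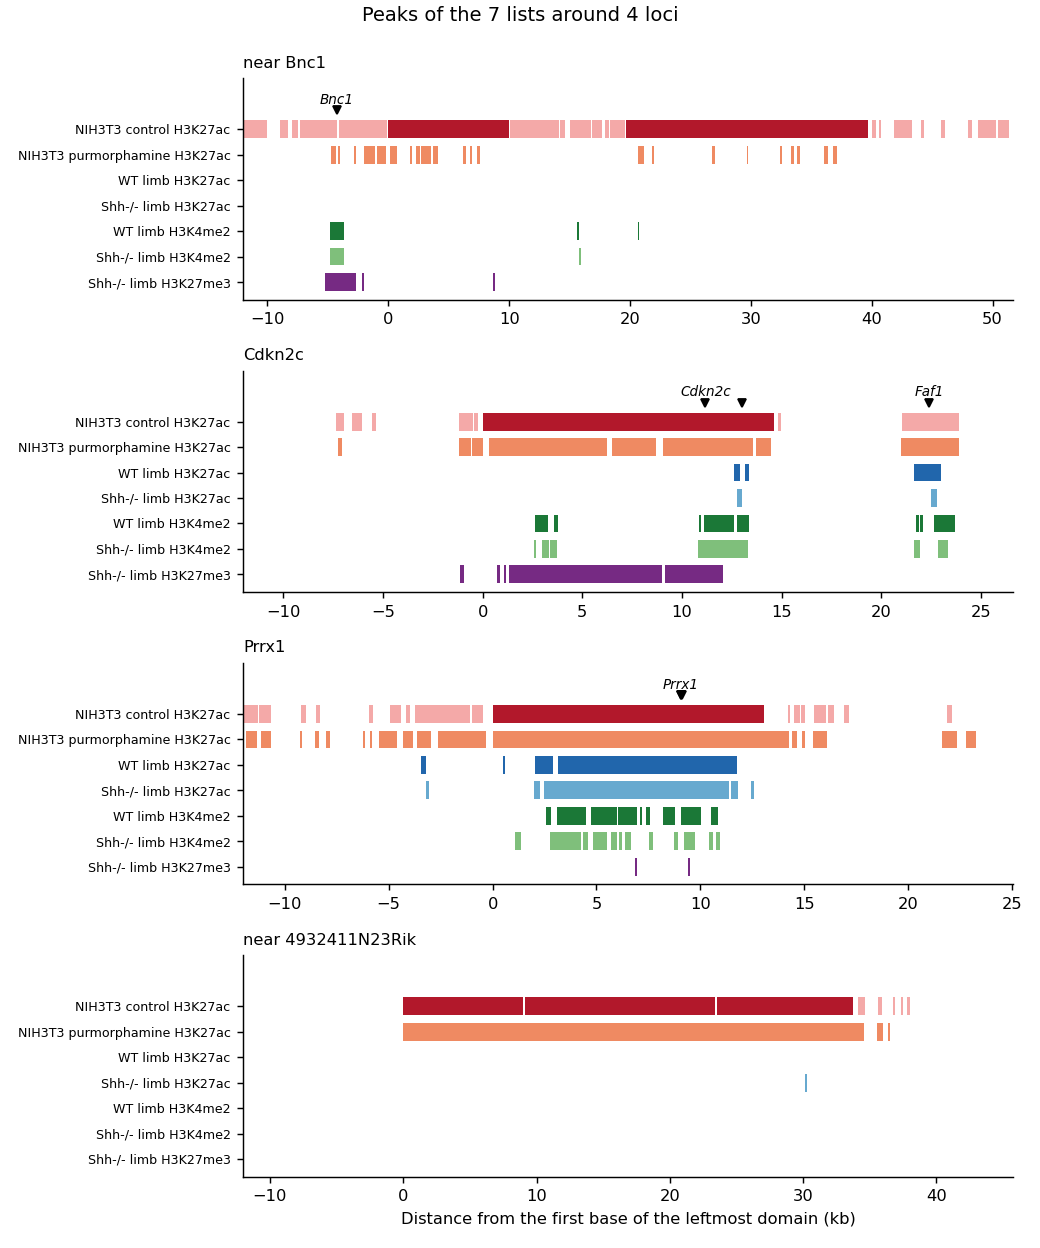
Peaks of the 7 lists around 4 loci, as bars along the distance in kb from the leftmost domain, with control domains in dark red, other control peaks in light red and protein-coding starts as triangles. Near Bnc1, in the top panel, the purmorphamine bars fill 7500 bp where control bars fill 53900 bp, Cdkn2c lies largely under limb H3K27me3 (10900 of 14600 bp), Prrx1 is shared by NIH3T3 and limb acetylation, and near 4932411N23Rik 1 purmorphamine peak spans 3 control domains.

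In the limb bud, 264 of the 500 domains overlapped a WT H3K27ac peak (52.8%, interval 48.4 to 57.1%) and 252 a Shh-/- H3K27ac peak (50.4%, interval 46.0 to 54.8%). Over all control peaks these shares were 18.5% and 16.8%, and in the next 500 they were 45.0% and 42.6%. A wide region meets a limb peak more readily, and by bp the order was different. Of the bp of the domains 15.0% lay in WT limb peaks, against 13.9% in the next 500 and 17.0% over all control peaks. For the Shh-/- list the shares were 14.8%, 13.0% and 14.8%. The domains were thus touched by limb acetylation more often than other control peaks, while the shares of bp lay close together.

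**Figure D4:**
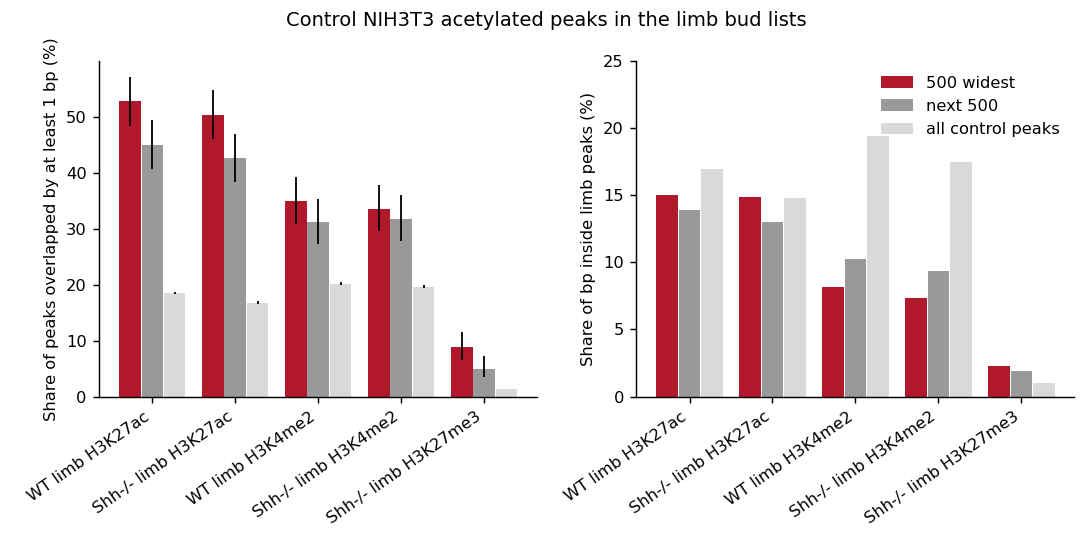
Share of control NIH3T3 peaks that overlap each limb list by at least 1 bp, with 95% Wilson intervals as error bars (left), and share of their bp inside limb peaks (right), for the 500 widest, the next 500 and all control peaks. The red bars are the highest on the left for all 5 lists, and on the right for H3K4me2 they fall below the light grey bars.

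Both genotypes marked 228 domains, WT limbs alone 36 and Shh-/- limbs alone 24. These are counts, without the same split of all control peaks beside them. The overlap seen in 1 genotype alone was small, with a median of 200 bp and at most 1200 bp for WT, and a median of 250 bp and at most 650 bp for Shh-/-. The widest stretch in Shh-/- limbs alone lay near Kera, the gene of the corneal proteoglycan keratocan. In bp, 144 domains had more acetylation in the WT list and 134 more in the Shh-/- list.

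Some domains lay almost wholly in limb acetylation. At least 90% of the bp was in WT limb peaks in 7, and all of it in 2, those of Zfp608, a zinc finger gene, and Lrig3, a membrane protein of inner ear development. The other 5 were 2 domains in Dnm3, Bahcc1, a domain 238 bp from Tnrc18 and a domain in Zfp503. Among wider domains, 13150 of 14800 bp in Trps1 and 9550 of 13050 bp at Prrx1 lay in WT limb peaks, and 11550 and 9750 bp in Shh-/- limb peaks. At Gas1 the values were 6400 and 6750 of 7900 bp. Of the 500 domains, 51 overlapped one of the 500 widest WT limb H3K27ac peaks (10.2%), and 54 of those limb peaks overlapped a domain.

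In neither genotype did 212 domains overlap limb H3K27ac (42.4%, interval 38.1 to 46.8%), beside 79.3% of all control peaks and 254 of the next 500 (50.8%, interval 46.4 to 55.2%). The widest of them included domains near Lnx1, Clec2d, Bnc1, Mtap, Mctp2, Ifne and 4932411N23Rik, at Fgf7 and in Vps13b. A coding start was held by 11.8% of the 212 and by 36.0% of the 228 marked in both genotypes. Of their bp, 80.5% was kept with purmorphamine, and 91.8% in the domains marked in both. The domain in Vps13b, 13750 bp wide, kept 51.6%, and that of Fgf7 98.9%, so the group held both kinds. No limb list of any of the 3 marks touched 184 domains, Fgf7 among them. The share of all control peaks is not given beside this count, so it is not read as a trait of the domains.

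H3K4me2 of WT limbs touched 175 domains (35.0%, interval 30.9 to 39.3%) and that of Shh-/- limbs 168 (33.6%, interval 29.6 to 37.9%), against 20.2% and 19.6% of all control peaks. By bp the share was 8.14% for WT, against 10.2% in the next 500 and 19.4% over all control peaks. It went with transcription starts. WT H3K4me2 was found on 101 of the 121 domains with a coding start (83.5%, interval 75.8 to 89.0%), on 35 of 156 in gene bodies and on 39 of 223 between genes. No limb acetylation but some H3K4me2 was found on 22 domains, a count without the share of all control peaks beside it.

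H3K27me3 of Shh-/- limbs touched 44 domains (8.80%, interval 6.62 to 11.6%), against 1.34% of all control peaks and 25 of the next 500 (5.00%, interval 3.41 to 7.28%). By bp it covered 2.28%, 1.03% and 1.91% in the same order. The covered length was a median of 900 bp, and 32 of the 44 held a coding start. Developmental transcription factors were among them. The H3K27me3 list was the least strict, with FDR values up to 0.255, and 6.20% of the domains overlapped its peaks with an FDR under 0.05. All 5500 bp of the Foxc2 domain were covered. Foxc2 is a forkhead factor of mesenchyme and vessels. At Cdkn2c 10900 of 14600 bp were covered, at En1, a homeobox gene of the ventral limb ectoderm, 7050 of 7800 bp, and at Runx2, a factor of bone, 4000 of 6750 bp. Further domains were those of Mn1 (3650 bp), Runx1 and Mab21l1 (3450 bp each) and a domain beside Nr2f1 (3350 bp). At Mab21l1 the same domain also had 5500 bp in WT limb H3K27ac peaks, while Foxc2, En1 and Runx1 had none. Of the 44, 19 had no limb H3K27ac, beside 212 of all 500 domains, which is a similar share.

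**Figure D5:**
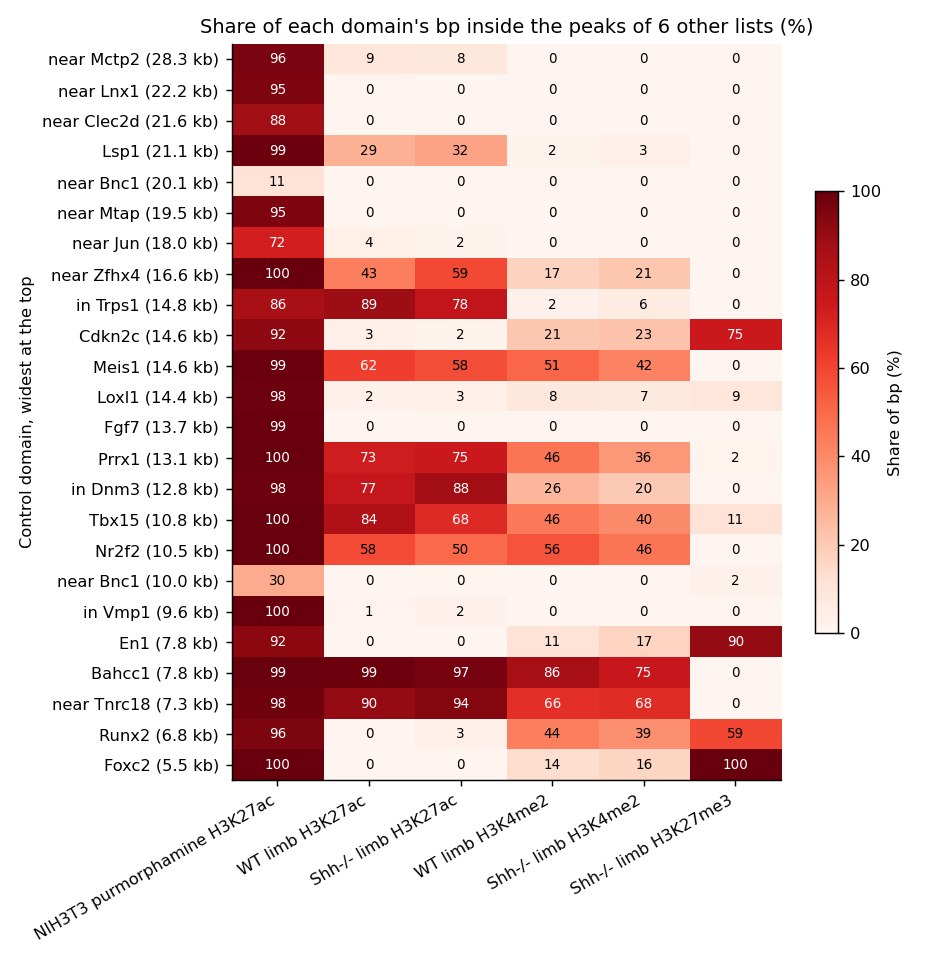
Share of bp of 24 named control domains inside the peaks of 6 other lists, as a percentage printed in each cell, with the widest domain at the top and darker red for larger shares. The purmorphamine column is lightest in the domains near Bnc1 (10.7% and 30.0%), followed by the domain near Jun (72.5%), while the limb columns separate domains shared with limb acetylation (Bahcc1, Trps1, Prrx1), those under H3K27me3 (Foxc2, En1) and those with neither (Fgf7 and the domain near Mtap).

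Sequence composition moved with these groups. AP-1 letters occurred 0.421 times per kb in the domains, 0.483 in the next 500, 0.385 in all control peaks and 0.262 in the 500 widest WT limb H3K27ac peaks. In the same order the GC content was 45.8%, 47.1%, 48.4% and 47.6%, and the number of CpG per kb was 13.5, 15.6, 21.6 and 24.5. The part of base composition in the motif counts was not tested. At least 1 AP-1 match was found in 93.0% of the domains and 17.9% of all control peaks, which are narrower. In 300 bp windows at the strongest point the shares were 8.00% and 9.31%, so at equal length the domains did not hold it more often. Within the domains, AP-1 letters occurred 0.485 times per kb in those without limb acetylation and 0.359 in those marked in both genotypes, and 0.313 with a coding start and 0.455 without one. TEAD letters occurred 0.652 times per kb, against 0.638, 0.607 and 0.602 in the other sets. The GLI letters occurred 0.00619 times per kb, against 0.00686, 0.00901 and 0.00619, and 0.200% of the 300 bp windows held them, beside 0.310% over all control peaks.

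The domains were spread over all 20 chromosomes used. They were most frequent per 1000 control peaks on chromosomes 7 (8.18), 12 (7.97) and 3 (7.62) and least frequent on chromosomes 14 (2.64) and 8 (2.91). NIH3T3 cells are an established line with an altered karyotype, and copy number was not measured here. The share of bp kept with purmorphamine ran from 78.6% on chromosome 9 and 78.9% on chromosome 18 to 93.0% on chromosome 10.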

How the data were processed

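ChIP-seq peak lists of 7 conditions were used, each made by the authors from both replicates together, with Bowtie2 2.2.5 and mm10 named in the submitters' processing notes and CisGenome named as the peak caller in the study's methods. No paired or left-out replicate could be formed from the lists. The deposited columns used were peak length in bp, a rank, an FDR (a q-value of the authors' caller), the authors' score (largest statistic of ChIP over input), the deposited log2 of ChIP over input at its highest, and the deposited −log10 of the smallest Poisson p-value, which was looked at only as a range. Files do not say whether positions count from 0 or 1, so coordinates are printed as deposited and may be off by 1 bp. Peaks on chromosomes 1 to 19 and X were kept. Overlap meant at least 1 bp.

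The domains, gene lists and comparisons were chosen with earlier results of these data known. Domains were named by the protein-coding starts in them (GENCODE vM21 basic), otherwise by the gene body or nearest start. Named were the 20 widest, the 10 that kept least and 5 widest kept whole, the 10 widest without limb H3K27ac, those with at least 90% in WT limb H3K27ac, the 10 with most H3K27me3, those at the width limit, and up to 4 per gene list. A gene or window outside this rule (such as the remaining list members, Vmn1r42, the microRNA genes and the grouped loci) was chosen after its values were seen, and a few domains that the rule names are not reported here. Interval counts were checked against bedtools 2.31.1 and tested on simulated data. Sequence came from GRCm38, and no peak ended past a chromosome; microRNA sequences came from RefSeq (GRCm38.p6). Python 3.11.15, pandas 2.3.3, scipy 1.17.1 and pysam 0.24.0 were used. Alternatives were other numbers of domains, merged peaks, bridged gaps, better-ranked or FDR-limited lists, a stricter overlap, other start definitions and autosomes only.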

Additional observations from a re-analysis of the deposited data

How the results depend on the processing

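No paired analysis was possible because each list pools its replicates, and no replicate could be left out for the same reason. A value was taken as moved when it left the 95% Wilson interval of the reported value over 500 domains. For the shares of bp, this interval was formed as if the share were one of 500 domains. It is only a yardstick there and measures no error of a bp share. Merging peaks within 1 kb before choosing the widest moved the bp kept with purmorphamine from 86.3 to 79.5%, the bp of wide purmorphamine peaks in control from 81.1 to 69.3%, the domains that kept at least 50% from 93.4 to 89.0%, the domains with WT limb H3K27ac from 52.8 to 59.0% and the bp in it from 15.0 to 11.2%. Bridging gaps of up to 500 bp moved the first 3 to 92.0, 85.4 and 96.4%. The domains that kept at least 50% were 97.2% of the 250 widest and 90.6% with the better-ranked 50% of the purmorphamine list. The better-ranked 50% of the limb lists moved the domains with WT limb H3K27ac to 42.0% and those with H3K27me3 from 8.80 to 6.20%, and limb peaks with FDR under 0.05 also gave 6.20%. With at least 50% of the domain covered, these were 12% and 1.60%. Counting genes of every type moved the domains with a start from 24.2 to 34.8%. The cause of these shifts was not tested, beyond the stricter or looser counting that each alternative itself applies. The other 28 of 44 values stayed within the interval, among them all 7 on autosomes alone. The width limit passes through 15 peaks of equal width, and depth per library could not be weighed.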

Other observations

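The 13 widest purmorphamine peaks without any control peak were 5200 to 9850 bp wide. Of these, 2 held a protein-coding start, that of Tmem174 and that of Pgf, which encodes placental growth factor. The others lay near or in Pard3, Asap1, Gm29797, Kcns2, Gm10295, Gm12830, Gmds, Chd6, Ccdc171, Inhba, the gene of an activin subunit, and Rasl11b.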
